A study of Sus scrofa with 20 samples.

Results

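These data describe the kidneys of the 10 control pigs among the 20 animals of a randomised study of neurologic death. Each control animal was anaesthetised and received a burr hole and catheters, but no intracranial balloon was inflated. It was then ventilated for 6 h, with saline boluses (0.9% NaCl, 2 cc/kg) when needed to hold mean arterial pressure over 35 mmHg, before 2 pieces of kidney were taken by laparotomy and frozen. The baseline is therefore that of an operated, anaesthetised and ventilated pig, not of an undisturbed one. The samples were chosen by their title, Kidney Control, and are named here by the animal number it carries: Control_02, Control_134, Control_155, Control_156, Control_157, Control_184, Control_187, Control_190, Control_197 and Control_199. The labels used here give no sex, age, breed or batch, and do not say whether the pieces were cortex or medulla. Each animal was read on 1 porcine 3′ expression array, and 1 value was kept for each of 6765 named genes, that of the gene's probe set with the highest mean over the 10 arrays. The 10 animals whose brain death was induced were not analysed here.

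The mammalian kidney filters plasma in the glomerulus, whose podocytes line the filter. The proximal tubule then reclaims most of the filtered salt, sugar, amino acids and protein, makes glucose and ammonia, and runs on oxidation of fatty acids in densely packed mitochondria. The thick ascending limb, distal tubule and collecting duct adjust salt, calcium, potassium, acid and water, the last with principal and intercalated cells. Signals of different probe sets depend on how well each probe binds, so a rank of signals is not a rank of RNA amounts. The spread of 1 probe set between animals compares like with like, but its size also differs between probe sets of the same gene. For PDK4 the probe set kept had a standard deviation of 0.49 and a weaker probe set 0.83, with a correlation of 0.97 between them. A level probe set is therefore not always a level gene. In tissue pieces, fewer cells of a type and less RNA per cell cannot be told apart. With 1 array per animal, the spread between animals and that between 2 arrays of the same RNA cannot be told apart either.

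The arrays resembled one another, with Pearson correlations of 0.982 to 0.994 over 23999 probe sets between pairs of arrays and array medians of 5.09 to 5.28 on the log2 scale. The background ceiling, the highest mean among 23 control probe sets with no pig target, was 2.69. The 27 probe sets for the hybridisation spikes, RNA of known amount added to every array, had standard deviations (SD) of 0.07 to 0.231 with a median of 0.19. Control_02 and Control_134 stood apart in a second control: the polyadenylated dap spike gave 2.52 and 3.06 there against 7.93 to 9.61 on the other 8 arrays, so counts and spreads that rest on these 2 arrays are also given over the other 8. The difference between 3′ and 5′ probe sets of GAPDH and ACTB, which widens as RNA breaks down or copying stops early, was 1.20 in Control_02, the lowest, and 1.98 in Control_184, 1.97 in Control_199 and 1.92 in Control_190, the highest.

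Of the 6765 genes, 5530 (81.7%) were above the background ceiling on all 10 arrays, 913 (13.5%) were at or under it on all 10, and 322 lay between. The median gene had a mean of 7.75, and 87 genes had a mean above 14. The strongest signals came from housekeeping transcripts and from proteins of iron storage, peroxide removal and lysosomes. FTL, the ferritin light chain, led with a mean of 15.58 and an SD of 0.07 (n = 10), and its partner FTH1, the heavy chain, had 15.28 ± 0.07. Catalase (CAT), which breaks down hydrogen peroxide in peroxisomes, came second with 15.41 ± 0.12. GPX3, the plasma glutathione peroxidase that the proximal tubule secretes, had 15.17 ± 0.14, and SELENOP, a selenium transport protein, 15.09 ± 0.17. The lysosomal proteases LGMN and CTSB had means of 15.20 and 14.88. CAPNS1, TPT1, EF1ALPHA, RPS20, UBB and RPS18, of calpain, translation and ubiquitin, filled 6 of the other places among the 15 strongest. Of the 100 highest means, 37 belonged to the list of ribosomal protein genes, 5 to that of oxidative phosphorylation and 5 to that of the proximal tubule.

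Most of these strong genes were nearly level across the animals on the probe sets kept. FTL ran only from 15.45 to 15.65 and TPT1 from 15.26 to 15.40. A weaker FTL probe set ran from 10.52 to 11.71. RIDA, a deaminase abundant in liver and kidney, was the exception among the 15, lowest in Control_157, with 14.33 in Control_156, a median of 15.02 and a highest value of 15.25 in Control_02. Its SD of 0.41 was 2.36 times the median SD of the 500 genes nearest to it in mean. The metallothionein MT1A, which binds zinc and copper, ranked 33rd by mean and spread further: 12.94 in Control_134, 13.68 in Control_199, a median of 14.69 and 15.46 in Control_190, a range of 5.71-fold, or 3.43-fold over the 8 arrays with the dap spike.

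Transcripts that define kidney tubule were present in all 10 animals, and the proximal tubule list had the highest median mean of the segment lists. Of 37 measured members, 33 were above background on every array, and their median mean lay at the 88.2 percentile of all genes. The gluconeogenic enzymes FBP1 (14.93 ± 0.17) and PCK1 (14.57 ± 0.20) and the brush border peptidase ENPEP (14.60 ± 0.10) were strongest, followed by DDC (14.21 ± 0.25), which makes dopamine. PDZK1, a scaffold of the brush border, had 13.99 ± 0.19. LRP2, or megalin, the receptor for filtered protein, had 13.39 ± 0.23 and the water channel AQP1 13.02 ± 0.26. The transcription factor HNF4A ran from 12.61 to 13.06. SLC9A3, FABP1 and SLC36A2 were at or under the background ceiling on all 10 arrays, so their probe sets gave no level for these genes.

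Several proximal transporters and enzymes differed far more between animals than those. Of the 37 members, 10 were in the top 10% of SD, which by construction holds 677 genes (10%), and 8 had a range of at least 4-fold, against 6.9% of all genes (467). BHMT, which remethylates homocysteine, ran from 9.32 in Control_157 through a median of 10.56 to 13.22 in Control_02, a 14.9-fold range, or 7.27-fold over the 8 arrays with the dap spike. SLC4A4, the basolateral bicarbonate exit, was above 11 in Control_02, Control_134 and Control_155 and at 10.49 or under in the other 7, with an SD of 0.88, or 0.64 over the 8 arrays. SLC22A6, the organic anion transporter OAT1, was 7.10 in Control_134 and 8.63 to 9.72 elsewhere, and its SD of 0.74 was 0.339 without that animal. SLC2A2, the exit route for glucose, was lowest in Control_156 at 6.94, with a median of 8.78 and a highest value of 9.31. SLC5A1, which takes up glucose with sodium, was lowest in Control_190 at 7.58 and highest in Control_197 at 10.31. MIOX, a kidney oxygenase that opens inositol, was highest in Control_157 at 14.31 and in Control_02 at 14.01, against a median of 13.31. DPEP1, a membrane dipeptidase, was between 12.38 and 12.92 in Control_02, Control_155 and Control_157 and at 11.98 or under in the other 7. HPD, of tyrosine breakdown, was under the background ceiling in Control_199 and reached 6.50 in Control_157. Without the 2 arrays lacking the dap spike, 9 members were in the top 10% of SD and 6 had a 4-fold range.

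**Figure D1:**
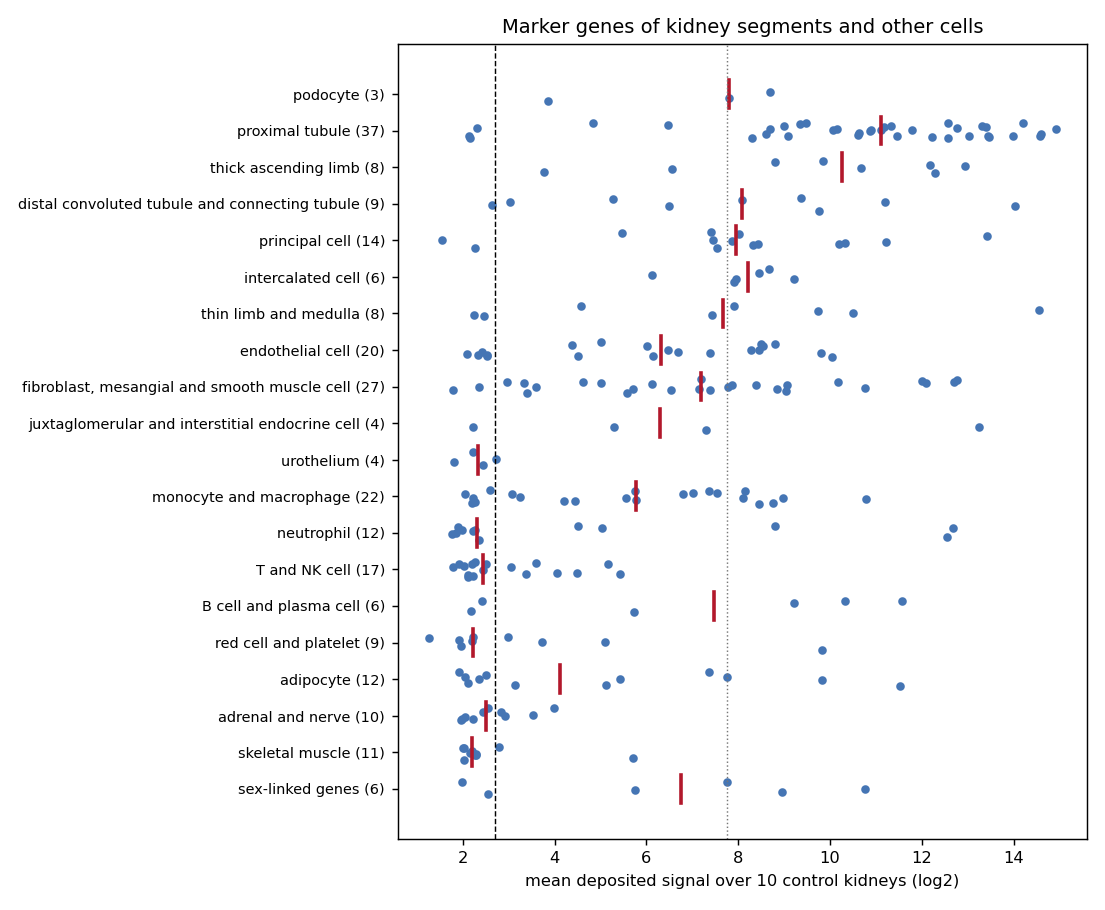
Each point is the mean deposited log2 signal over the 10 control kidneys of 1 marker gene (horizontal axis), by cell type list (rows, number measured in brackets). The red bar is the list's median, the dashed line the background ceiling of 2.69 and the dotted line the median gene at 7.75. The median of the proximal tubule list is the highest among the lists drawn, and the medians of the urothelium, neutrophil, T and NK cell, red cell, adrenal and nerve, and skeletal muscle lists lie under the background ceiling.

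Markers of the thick ascending limb were present in every animal, with all 8 measured members above background on all arrays. EGF, made by this segment and shed into urine, had 12.93 ± 0.32, the paracellular pore CLDN10 12.28 ± 0.19 and KCNJ1, the apical potassium channel ROMK, 10.67 ± 0.25. KCNJ1 was 11.31 in Control_134 and 10.36 to 10.80 in the others, and its SD over the 8 arrays was 0.13. PPP1R1A, a phosphatase inhibitor, spread most, from 7.75 in Control_02 through a median of 8.97 to 9.87 in Control_197. PTGER3, a prostaglandin E2 receptor, was lowest in the same animal, Control_02, at 5.67, and highest in Control_156 at 7.34. The mean deviation of the 8 members from their own means was highest in Control_134, at 0.34, and lowest in Control_02, at −0.22.

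In the distal convoluted and connecting tubule, FXYD2, a subunit of the sodium pump, was strongest with 14.03 ± 0.16. Kallikrein KLK1, which this segment secretes, had a lowest value of 10.13 in Control_197, a median of 11.21 and a highest value of 12.80 in Control_157. WNK1, a kinase that sets sodium chloride uptake, ran from 5.26 in Control_199 to 7.98 in Control_156, whereas WNK4 ran from 7.47 to 8.57. TRPM7, a magnesium-permeable channel found in many cells, had 9.36 ± 0.18. The calcium handlers S100G and TRPV6 were weak, at 5.27 ± 0.28 and 3.02 ± 0.47. SLC8A1, the sodium and calcium exchanger, was above the ceiling in Control_134 alone, at 3.71.

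Principal cell markers were led by SGK1, an aldosterone- and glucocorticoid-responsive kinase that many cell types also express. It had a lowest value of 13.06, a median of 13.32 and a highest value of 14.22 in Control_199, with the next animal at 13.64. The glycerol and water channel AQP3 was lowest in Control_02 at 10.28, with a median of 11.16, and highest in Control_197 at 11.93. HSD11B2, which shields the mineralocorticoid receptor from cortisol, had 10.19 ± 0.28, and SCNN1B, a subunit of the epithelial sodium channel, 7.44 ± 0.32. KCNE1, a potassium channel subunit found in more than 1 segment, was 7.93 in Control_187, 6.27 in Control_190 and 4.08 to 5.86 in the other 8. The keratins KRT18 and KRT19 had SDs of 0.69 and 0.54. SCNN1A and the vasopressin receptor AVPR2 were at or under the ceiling on all arrays.

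Intercalated cells secrete acid or base with a vacuolar proton pump. All 6 measured markers were above background in every animal, and 3 were in the top 10% of SD. Their mean deviation spread over 1.28 log2 units, from −0.55 in Control_134 and −0.54 in Control_199 to 0.51 in Control_190 and 0.73 in Control_157. Control_157 had the highest value of 4 of the 6 and Control_190 that of the other 2. Over all 5685 genes with a mean above background, those animals held the highest value of 15.8% and 7.65%. The pump subunit ATP6V0D2 was 6.78 in Control_199, had a median of 7.90 and was 9.23 in Control_157. ATP6V0A4, another pump subunit, was 7.05 in Control_199, had a median of 8.56 and was 9.26 in Control_157. RHBG, an ammonia transporter, was 6.69 in Control_134, had a median of 7.87 and was 9.27 in Control_190. HEPACAM2 and ATP6V1C2 had SDs of 0.37 and 0.44.

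Only 3 podocyte markers were measured: TCF21 (8.70 ± 0.27), LAMB2 (7.80 ± 0.30) and WT1 (3.85 ± 0.12). In the list for the thin limb and medulla, osteopontin SPP1 had 14.54 ± 0.42 and clusterin CLU 10.49 ± 0.47, both also made by injured tubules. CRYAB, a small chaperone abundant in the medulla, ran from 8.53 in Control_02 through a median of 9.60 to 10.83 in Control_197. CLDN4 was lowest in Control_155 and highest in Control_197, at 7.30 and 8.63. PTGDS, a prostaglandin D synthase, ran from 6.43 in Control_184 to 8.24 in Control_156. The list's 6 members above background had mean deviations of −0.35 in Control_184 and 0.39 in Control_197. How far the pieces differed in their share of medulla was not tested.

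Vessel and stroma markers were measured in every animal. Of 20 endothelial genes, 15 were above background on all arrays and 4 on none, with a median mean at the 35.4 percentile. Of 27 stromal genes, 24 were above it on all arrays and 1 on none, with a median mean at the 43.2 percentile. The endothelial genes named next are among the stronger ones. PECAM1, an endothelial adhesion molecule, had 10.04 ± 0.25, S1PR1 9.81 ± 0.43, TEK, the angiopoietin receptor, 8.46 ± 0.63 and CDH5, the endothelial cadherin, 8.27 ± 0.32. Thrombomodulin THBD, which turns thrombin to an anticoagulant role, spread most: 6.52 in Control_134, a median of 9.24 and 10.28 in Control_157, a 13.6-fold range, or 6.13-fold over the 8 arrays with the dap spike. Among fibroblast and smooth muscle genes, MGP (12.77 ± 0.43), SPARC (12.69 ± 0.26) and VIM (12.01 ± 0.30) were strong. Smooth muscle actin ACTA2 ran from 10.69 in Control_184 through a median of 11.91 to 13.30 in Control_134. The matrix proteins LUM and POSTN had SDs of 1.16 and 0.99. LUM was 8.45 in Control_156, 7.65 in Control_157, 6.77 in Control_199 and 4.81 to 5.94 in the other 7. Control_184 had the lowest value of 11 of the 25 stromal genes with a mean above background, while it held the lowest of 8.14% of all such genes.

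Markers of tissue that a kidney piece might carry along were partly at background. None of the 4 urothelial genes was above background on all arrays, and UPK1B was above it in 5 animals, at most 3.25. Of 11 skeletal muscle genes, 8 were at or under the ceiling on all arrays, and so were 6 of 10 adrenal and nerve genes, STAR, CYP17A1 and CYP11A1 among them. The other 4 of that list were above it on all arrays, with MC2R, the corticotropin receptor, highest at 3.99 ± 0.05. Of 12 adipocyte genes, 7 were above it on all arrays and 5 on none. PNPLA2 (11.52 ± 0.39), a lipase of many tissues, SCD (9.82 ± 1.49) and FABP4 (7.36 ± 0.52), which capillary endothelium also makes, were above it, and the fat cell hormone ADIPOQ was not. EPO, made by few interstitial cells, was at or under the ceiling, and the juxtaglomerular connexins GJA5 and GJA4 had 7.29 ± 0.41 and 5.29 ± 0.39. Among 6 measured sex-linked genes, EIF1AY had 10.76 ± 0.13 and SRY was at or under the ceiling on all arrays. EIF1AY has a near-identical copy on the X chromosome, which its probes may also read.

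Macrophage genes had a median mean at the 31.8 percentile, with 17 of 22 above background on all arrays and 5 on none. Among the strongest, CTSS, a lysosomal protease, had 10.78 ± 0.28, C1QC 8.98 ± 0.29 and AIF1 8.45 ± 0.44. The scavenger receptor CD163 was 7.13 in Control_157 and 7.19 in Control_156, had a median of 8.08 and was 9.12 in Control_134. C1QA was 4.25 in Control_190 and 5.59 to 6.24 in the others. T and NK cell genes were weak: 10 of 17 were at or under the ceiling throughout, and CCL5 (5.42 ± 0.49) and GNLY (5.17 ± 0.48) were the strongest. Control_02 had the highest value of 4 of the 7 with a mean above background, while it held that of 10.3% of all such genes. CD8A there was 5.67 against a median of 4.18. Of neutrophil genes, S100A8 was at or under the ceiling in every animal, while S100A9, usually its partner, ran from 2.56 in Control_190 through 4.40 to 6.65 in Control_02. AMCF-II (12.68 ± 0.17), SOD2 (12.55 ± 0.21) and FCGR3A (8.80 ± 0.39), stronger genes of that list, are not made by neutrophils alone.

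Of 6 measured B cell and plasma cell genes 4 were above background, with a median SD over the 6 of 0.108. XBP1, a secretory factor that tubules also express, was level at 11.57 ± 0.11, whereas JCHAIN and TNFRSF17 were uneven. JCHAIN, which joins antibody units, was 7.92 in Control_134, had a median of 9.20 and was 10.58 in Control_156. LOC396781, the immunoglobulin G heavy chain IGHG in the RefSeq table, ranked 7th of all genes by SD: 6.88 in Control_134, a median of 8.66 and 13.20 in Control_156. LOC100152327 had the same high animals, with 12.78 in Control_156, 11.95 in Control_02 and 11.50 in Control_157, and 7.72 to 9.82 in the other 7. TNFRSF17, the plasma cell receptor BCMA, was instead highest in Control_184 at 11.58 and lowest in Control_157 at 9.10. Haemoglobin HBB, carried by blood left in the tissue, had 9.82 ± 0.30, with a lowest value of 9.26 in Control_199 and a highest of 10.34 in Control_156.

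Across all genes the median SD was 0.230, with 0.258 for genes above background on all arrays and 0.0291 for genes at background on all arrays. The median range from the lowest to the highest animal was 1.65-fold. A range of at least 2-fold was seen in 2108 genes (31.2%) and of at least 16-fold in 48. Without Control_02 and Control_134 the median SD was 0.224 and 360 genes had a 4-fold range. Of the 15 genes with the highest SD, 13 were still among the 15 highest on those 8 arrays. For 1399 genes a second probe set was also above background on all arrays. The median correlation between a gene's 2 brightest probe sets was 0.50, and it was 0.838 for the 123 such genes in the top 10% of SD.

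**Figure D2:**
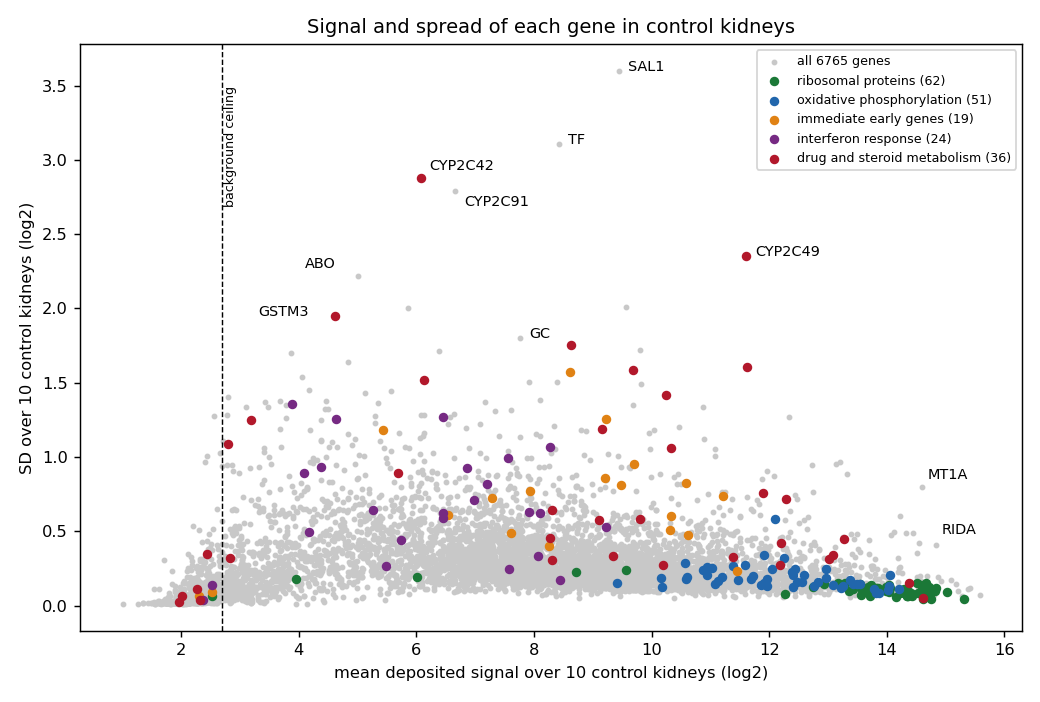
Each point is 1 of 6765 genes, with its mean deposited log2 signal over the 10 control kidneys (horizontal axis) and its SD over the same animals (vertical axis), with 5 gene lists coloured and the background ceiling dashed. Ribosomal protein genes, 61 of 62 with a mean above background, have SDs up to 0.237, whereas SAL1 reaches an SD of 3.60.

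The gene of highest SD was SAL1, a salivary lipocalin that carries small odour molecules. It was 2.37 in Control_199, under the background ceiling, and 4.54 in Control_187, against a median of 9.87 and 13.70 in Control_157. Control_02 and Control_156 were also above 12, while Control_199 had no measurable signal. TF, the iron carrier transferrin, came second with 3.09 in Control_199, 4.42 in Control_156, 5.32 in Control_134, a median of 9.50 and 11.82 in Control_155. GC, the vitamin D binding protein, was 3.41 in Control_157 and 6.54 to 9.77 in the other 9. Its SD of 1.80 was 1.01 without Control_157. ETNPPL, a phosphoethanolamine lyase, was 2.53 in Control_199, had a median of 5.98 and was 7.98 in Control_156. PEBP4 was 7.91 in Control_157, had a median of 2.98 and was under the ceiling in Control_199. CCL8, a chemokine for monocytes, was 8.06 in Control_02, 6.97 in Control_156 and 3.13 to 5.50 in the other 8.

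The cytochrome P450 genes for drugs and steroids held 3 of the first 5 places. Members of the CYP2C family are close in sequence, so their probe sets may read each other's transcripts. CYP2C42 was 2.16 in Control_187 and 2.17 in Control_190, both under the ceiling, had a median of 6.42 and reached 9.91 in Control_02. CYP2C91, a transcribed pseudogene in the RefSeq table, was 3.12, 3.34 and 3.79 in Control_190, Control_155 and Control_197, and 11.56 in Control_02. Its SD was 2.79 over all animals and 2.05 on the 8 arrays with the dap spike. CYP2C49 formed 2 sets: 8.30, 8.34 and 8.48 in Control_187, Control_155 and Control_190, and 11.48 to 14.19 in the other 7. CYP2C33, from the same family, was among the 10 lowest SDs, with 14.51 to 14.67 in all 10 animals. Whether CYP2C33 followed CYP2C49 within that narrow range was not tested.

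**Figure D3:**
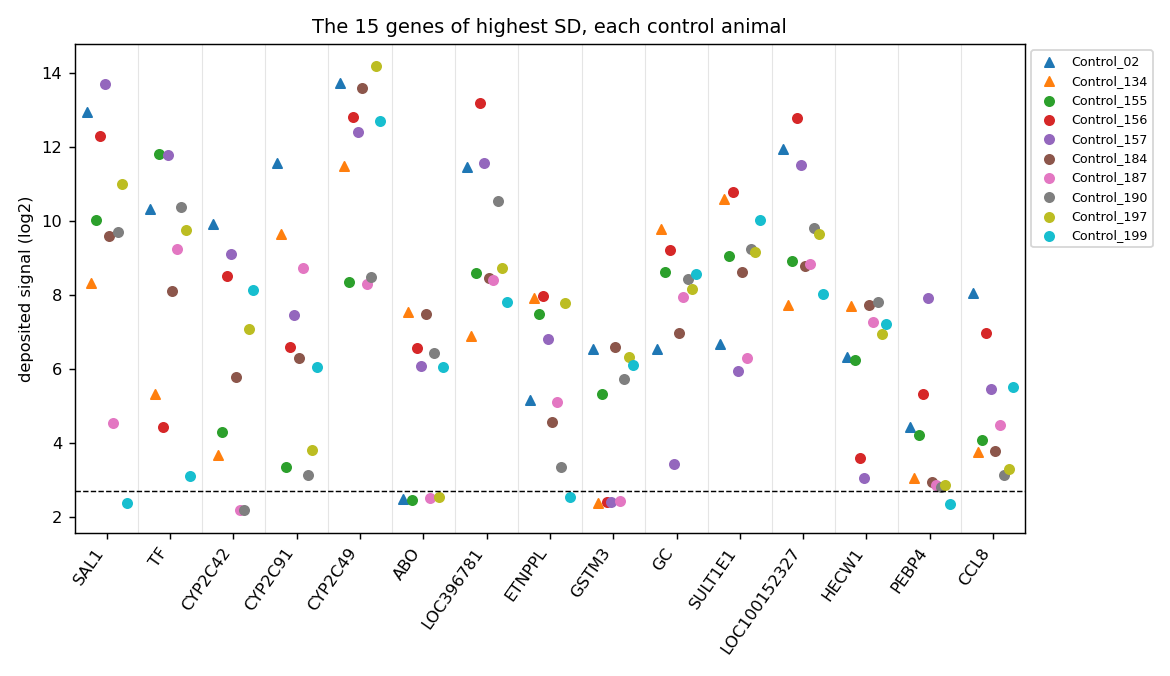
Deposited log2 signal (vertical axis) in each control animal (colours; triangles mark the 2 arrays without the dap spike) for the 15 genes with the highest SD among those with a mean above the background ceiling (dashed line). ABO and GSTM3 fall into a set of 4 animals under the line and a set of 6 above it, while SULT1E1 is spread from 5.94 to 10.77.

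A gap of at least 2 log2 units, with 2 or more animals on each side, was found in 10 genes (0.148% of 6765). They were SAL1, ABO, CYP2C49, GSTM3, TF, UCP3, HECW1, SRD5A2, TMC5 and CYP2C91, and they were singled out after their values were seen. ABO, the blood group glycosyltransferase, was 2.46 to 2.54 in Control_02, Control_155, Control_187 and Control_197, under the ceiling, and 6.05 to 7.53 in the other 6. GSTM3, a glutathione transferase, also divided 4 from 6, but the 4 low animals were Control_134, Control_156, Control_157 and Control_187, at 2.36 to 2.41, against 5.31 to 6.60. Control_187 was thus the only animal low for both. HECW1, a ubiquitin ligase, was 3.05 in Control_157 and 3.58 in Control_156, and 6.24 to 7.81 in the other 8. UCP3, a mitochondrial carrier, was above the ceiling in Control_155 (4.97) and Control_190 (5.43) alone. SRD5A2, steroid 5-alpha reductase, was so in Control_134 (5.96) and Control_156 (4.88) alone, and its SD of 1.40 was 0.96 over the 8 arrays with the dap spike. TMC5 was 5.56 to 5.83 in Control_134, Control_184 and Control_199, and 2.77 to 2.99 in the other 7. Genotypes at these genes are not in the labels used here.

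Drug and steroid metabolism had 18 of 36 members in the top 10% of SD and 16 with a 4-fold range. Its count was the highest of the 39 lists, but the shares of immediate early (63.2%) and interferon response genes (62.5%) were above its 50.0%. On the 8 arrays with the dap spike these counts were 17 and 15. Its median SD was 0.516, and the median member had 2.55 times the SD of genes of like mean. CYP2A19 was 8.87 in Control_134, had a median of 11.56 and was 14.37 in Control_02, and its range of 45.2-fold was 10.5-fold over those 8 arrays. CYP24A1, which inactivates vitamin D, was 7.03 in Control_134 and 7.66 in Control_184, had a median of 10.25 and was 11.33 in Control_02, with SDs of 1.59 over all animals and 1.35 over the 8. CYP3A29 ran from 4.46 in Control_155 to 8.55 in Control_156. SULT1E1, the oestrogen sulfotransferase, was 5.94 in Control_157, had a median of 9.09 and was 10.77 in Control_156. GSTA1 was 7.53 in Control_190, had a median of 10.62 and was 12.19 in Control_184. Control_02 had the highest value of 11 of the 31 members above background in mean, while it held 10.3% of all such genes. Several strong members were more even on the probe sets kept, beside CYP2C33: ALDH1A1 (14.38 ± 0.15), GSTO1 (13.27 ± 0.45), ALDH2 (13.09 ± 0.34) and FMO1 (13.02 ± 0.31). A weaker ALDH1A1 probe set had an SD of 0.56 and a correlation of 0.88 with the stronger. CYP27B1, which activates vitamin D in the proximal tubule, ran from 7.25 in Control_187 to 9.28 in Control_199, with a median of 8.23.

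Immediate early genes, which cells switch on within minutes of a stimulus, had the highest median SD of all lists, 0.722, and 12 of 19 were in the top 10% of SD. EGR1 was 7.09 in Control_156, had a median of 9.24 and was 11.54 in Control_187. Its 2 other probe sets followed it, with correlations of 0.97 and 0.96. FOS was 7.95 in Control_156, had a median of 9.26 and was 10.82 in Control_187. ATF3 ran from 9.02 to 11.84 with the same lowest and highest animals. JUN was instead lowest in Control_197 at 10.03 and highest in Control_134 at 12.19. NR4A3, an orphan receptor, was highest in Control_190 and Control_197, at 7.09 and 7.01. BTG2, an antiproliferative gene, was 11.28 in Control_02 and 10.95 in Control_134, the 2 arrays without the dap spike, and 6.66 to 9.06 in the other 8. Its SD was 1.57 with those arrays and 0.959 without them. DUSP1 and IER3, by contrast, had SDs of 0.48 and 0.23. Control_187 had the highest value of 7 of the 17 members above background in mean and Control_156 the lowest value of 9, against 10.8% and 13.2% of all genes.

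Interferon response genes also varied, with 15 of 24 in the top 10% of SD and 15 with a 4-fold range. Much of that range lay in 1 animal. The mean deviation of 22 members was 0.93 in Control_134 and 0.46 in Control_156, and Control_134 had the highest value of 11 of them. For comparison, among all 467 genes with a 4-fold range, 62 had their highest value in Control_134. ISG15, a ubiquitin-like antiviral protein, was 9.05 in Control_134, with a median of 6.45 and a lowest value of 4.95 in Control_199. RSAD2, or viperin, was 7.22 in Control_134 and 2.79 to 4.61 in the others. USP18, which trims ISG15 from proteins, was 7.87 in Control_134 and 3.53 to 5.27 in the others. EIF2AK2, the kinase PKR, was 9.68 in Control_134 and 7.43 to 8.33 elsewhere. On the 8 arrays with the dap spike, 10 members were in the top 10% of SD and 6 had a 4-fold range, and the SDs of RSAD2, USP18 and EIF2AK2 went from 1.36, 1.26 and 0.62 to 0.64, 0.58 and 0.28. GBP1, induced chiefly by interferon gamma, was highest in Control_156 instead, at 10.76, with a median of 7.96, and IRF1 was highest in Control_02 at 10.29. TAP1, the peptide transporter, had an SD of only 0.17.

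Heat shock genes were highest in Control_199, which held the highest value of 14 of the 23 members. That animal held 11.3% of all genes above background in mean. HSPH1, a co-chaperone of HSP70, was 9.16 in Control_156, had a median of 11.08 and was 12.85 in Control_199. DNAJA1 ran from 10.32 to 13.07 with the same lowest and highest animals. HSP90AA1, the inducible HSP90, was 13.15 in Control_157, had a median of 13.77 and was 14.61 in Control_199. Its probe sets with means of 10.65 and 7.78 followed it, with correlations of 0.67 and 0.73. Those with means of 12.28 and 10.46 did not, with correlations of −0.52 and −0.29. HSPA8, the constitutive HSP70, was 13.21 and 13.24 in Control_156 and Control_157 and 14.07 to 14.50 in the other 8. HSPD1 and HSPE1, the mitochondrial chaperonins, were also highest in Control_199, at 14.49 and 14.68. BAG3, which HSF1 induces with HSPH1 in other settings, was not: it ran from 11.49 in Control_197 to 12.14 in Control_157. Control_199 was also 1 of the 3 arrays with the widest 3′ to 5′ difference, and the part of that difference in these values was not tested for the list.

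Glucocorticoid target genes were strong in every animal, with all 21 measured members above background on all arrays and a median mean at the 83.8 percentile. TXNIP (14.52 ± 0.36), PDK4 (14.33 ± 0.49), CEBPD (13.51 ± 0.38), SGK1 and KLF9 (13.39 ± 0.48) had the highest means. Control_199 was low here, with the lowest value of 11 of 21 and a mean deviation of −0.51, while the other 9 lay between −0.06 and 0.17. Control_199 held the lowest value of 15.2% of all genes, the largest share of any animal, and it was not low throughout the list: SGK1 and CDO1 were highest there. KLF9 was 12.23 in Control_199 and 13.15 to 13.90 in the others. PER1, a clock gene that glucocorticoid induces, was 9.94 in Control_199 and 10.43 to 10.92 elsewhere. TXNIP, which restrains glucose uptake, was 13.74 there, with a median of 14.67. FKBP5, which dampens the glucocorticoid receptor, ran from 11.80 to 12.49, and CDO1, of cysteine breakdown, was 5.81 in Control_190 and 7.78 to 9.36 in the others. The receptor itself, NR3C1, had 5.36 ± 0.59. Of 9 clock genes, USP2 (10.52 ± 0.24) and NFIL3 (9.79 ± 0.35) were examples of moderate spread, and BHLHE40 and RORA had SDs of 0.64 and 0.68, that of RORA being 0.41 over the 8 arrays with the dap spike.

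In the MHC list, class I and II together, Control_156 had the highest value of 11 of 17 members and Control_184 the lowest value of 11. Over all 5685 genes above background in mean these animals held 684 of the highest and 463 of the lowest values. SLA-DRA was 9.74 in Control_184, had a median of 10.55 and was 11.16 in Control_156. SLA-DQA1 was 8.43 in Control_184 and 10.51 in Control_156, with a median of 9.58. SLA-DRB1 was 7.27 in Control_199, had a median of 10.34 and was 11.25 in Control_156. The porcine SLA genes are polymorphic and alike, and whether their probes read every allele alike was not tested. B2M (14.39 ± 0.14) and the class I genes SLA-2 (12.14 ± 0.23) and SLA-3 (10.75 ± 0.21) were level on the probe sets kept. Other B2M probe sets had SDs from 0.08 to 0.92. Control_184 and Control_156 had 3′ to 5′ differences of 1.98 and 1.34. In the limma fit of that difference across all probe sets, SLA-DRA had a slope of −1.38 ± 0.26 (SE) log2 per unit and an adjusted p of 0.0924, which did not pass. Slopes of the other members are not given here, and the part of that difference in the list's pattern was not tested.

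**Figure D4:**
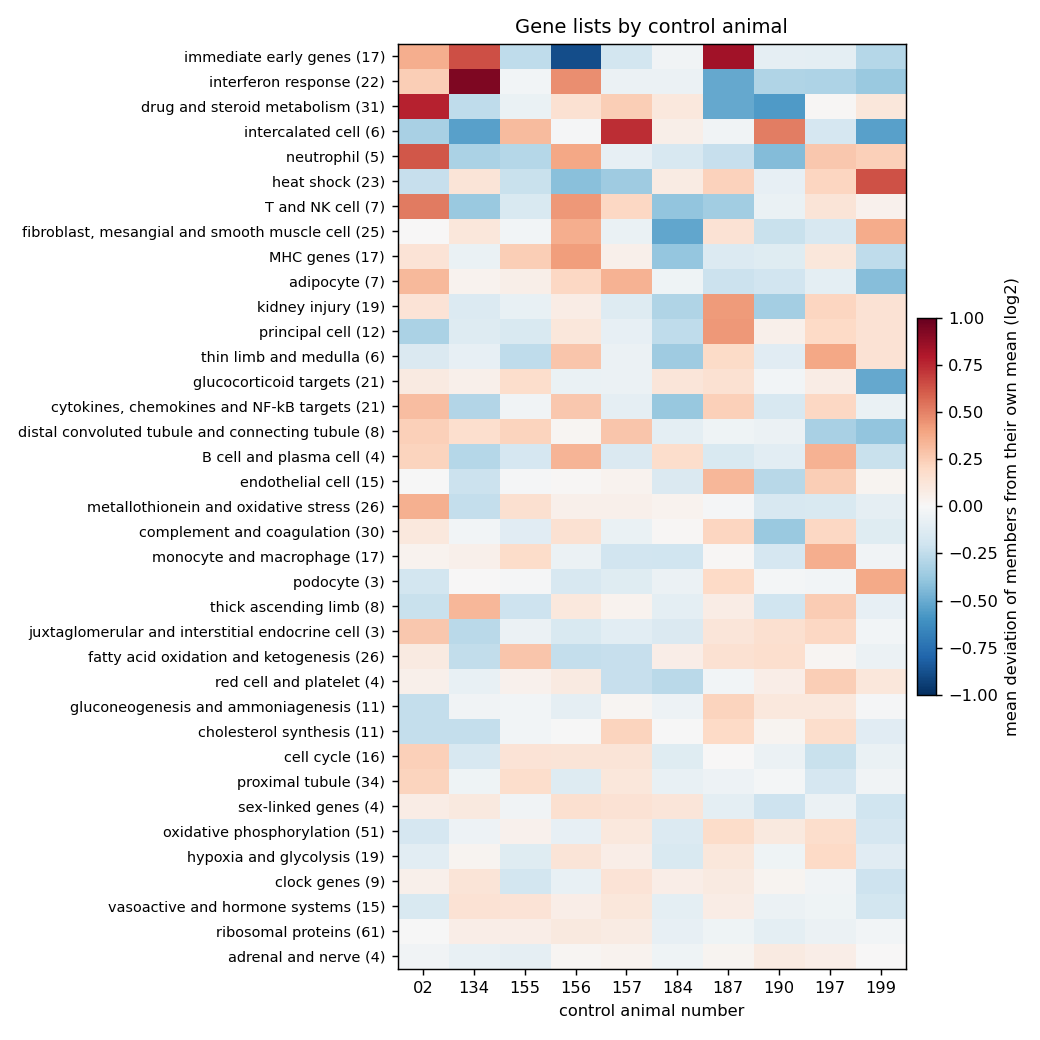
Mean deviation of each list's members from their own means over the 10 animals (colour, log2 units), by control animal number (columns) and list (rows, ordered by range; the number of members with a mean above background is in brackets). Immediate early genes run from −0.89 in Control_156 to 0.84 in Control_187, while ribosomal protein genes stay within 0.10 of their means.

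Inflammatory and injury genes gave mixed patterns. The cytokines IL6 and TNF were at or under the ceiling on all arrays, whereas 9 of 31 cytokine, chemokine and NF-kB target genes were in the top 10% of SD. CXCL2 was 5.91 in Control_199, had a median of 7.56 and was 9.11 in Control_187. CCL2 was lowest in Control_184 and 4.26 in Control_157, had a median of 5.85 and was 6.90 in Control_187. VCAM1 had the values 9.03 in Control_184, a median of 9.48 and 10.39 in Control_156. CCL19, a lymphoid chemokine, was 5.57 in Control_197 and 4.70 in Control_156, with a median of 3.10. The fibrinogen chains FGB and FGG, which kidney tubules make as well as liver, were strong. FGB was 12.88 in Control_190 and 13.44 in Control_199, had a median of 14.48 and was 14.69 in Control_02. FGG was 9.64 and 11.22 in the same 2 animals, had a median of 12.42 and was 13.68 in Control_184. Tissue factor F3 was 5.93 in Control_157 and 9.84 in Control_187, with a median of 7.80. Plasminogen PLG ran from 3.81 in Control_155 to 8.19 in Control_197. MT3, a metallothionein, was 6.12 in Control_199 and 8.35 to 10.13 in the others. Of 33 complement and coagulation genes, 12 were in the top 10% of SD, and 14 were so on the 8 arrays with the dap spike.

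Oxidative phosphorylation was more even than most lists. All 51 measured oxidative phosphorylation genes were above background on all arrays, their median mean lay at the 94.3 percentile and their median SD was 0.172, 0.842 times that of genes of like mean. None had a 4-fold range. COX7C (14.21 ± 0.11), ATP5B (14.05 ± 0.20), ATP5G3 (14.04 ± 0.13) and ATP5A1 (14.03 ± 0.10) led. CYCS, cytochrome c, alone was in the top 10% of SD: 11.39 in Control_157, a median of 11.99 and 13.30 in Control_197. The highest value lay in Control_157, Control_187 or Control_197 for 18, 17 and 11 of the 51 genes, against 15.8%, 10.8% and 9.38% of all genes. The lowest lay in Control_02, Control_199 or Control_184 for 20, 14 and 11, against 13.2%, 15.2% and 8.14%. Fatty acid oxidation was less even: its median SD was 0.276, 1.38 times that of genes of like mean, and 6 of 29 members were in the top 10% of SD. It had ACADM at 14.37 ± 0.11, ECHS1 at 14.25 ± 0.22 and ACSL1 at 13.54 ± 0.36. SLC25A20, the carnitine carrier of the mitochondrial membrane, was 7.89 in Control_156 and 8.17 in Control_157 and 9.15 to 10.37 in the other 8. Gluconeogenesis and ammonia genes had a median SD of 0.300, 1.30 times that of genes of like mean. Among them SLC37A4 (12.79 ± 0.30) and PC (12.24 ± 0.21) spread little, and GK, glycerol kinase, ran from 10.40 in Control_02 to 12.20 in Control_199.

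Sterol, hypoxia, hormone and growth genes lay closer to the typical gene. In cholesterol synthesis, HMGCS1 was 7.82 in Control_02, had a median of 8.75 and was 9.65 in Control_197. MSMO1 had 10.13 ± 0.15 and SQLE 6.46 ± 0.62. SCD, the stearoyl-CoA desaturase, had the highest SD of the adipocyte list, with 7.37 in Control_199, a median of 9.67 and 11.70 in Control_157. LDHB (14.22 ± 0.26) and GAPDH (13.86 ± 0.13) led glycolysis, and CA9, a marker of low oxygen, had 5.71 ± 0.54. Among hormone systems, PTH1R, the parathyroid hormone receptor, had 10.98 ± 0.27 and AGTR1, the angiotensin II receptor, 10.23 ± 0.35. IGFBP1 ran from 2.87 in Control_02 through 4.38 to 6.34 in Control_155. TOP2A, a marker of dividing cells, was weak, from 2.28 in Control_197 to 5.14 in Control_02.

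The lowest SDs among genes above the median gene belonged to RPS28 (0.045), RPS2, TPT1, BCCIP, EF1ALPHA, AKT2, CYP2C33 (0.053), HSPA9 (0.056), NDFIP1 and MIA2. This set was sensitive to scaling: once array medians were made equal, the SDs of TPT1, BCCIP, HSPA9, NDFIP1 and MIA2 were 0.0717, 0.0811, 0.0918, 0.0939 and 0.0942, over 1.5 times as large. RPS28, a protein of the small ribosomal subunit, ran from 14.53 to 14.68. AKT2, a kinase of the insulin pathway, ran from 8.64 to 8.81. BCCIP, which binds BRCA2, ran from 10.31 to 10.45. All 3 spreads are below the median SD of 0.19 among the added hybridisation spikes. As a list, the 62 ribosomal protein genes had a median mean at the 98.8 percentile and a median SD of 0.0988, 0.564 times that of genes of like mean. None was in the top 10% of SD. The highest value lay in Control_156 for 22 of the 61 genes with a mean above background and the lowest in Control_190 for 24, against 684 and 640 of all 5685 such genes. Low spread on 1 probe set did not always hold for the others of its gene. A weaker probe set of HSPA9 had an SD of 0.82, and another of EF1ALPHA 0.63. In the limma fit of the 3′ to 5′ difference, that HSPA9 probe set had a slope of −2.79 ± 0.35 (SE) log2 per unit (adjusted p = 0.029). Another HSPA9 probe set, with a mean of 12.06, had an SD of 0.15.

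Of the gene pairs chosen because they share a cell type or pathway or mark different segments, 22 were measured. Earlier results of these data were known when the pairs were chosen, so their p-values are descriptive. Each was tested over the 10 animals with a two-sided permutation test of 100000 resamples, with Benjamini-Hochberg adjustment over the 22. By Pearson's r 4 pairs passed and by Spearman's rho 5, and 8 had an unadjusted p under 0.05. For comparison, 1.09% of all pairs among the 5530 genes above background had an r of at least 0.8.

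FGB and FGG, chains of the same clotting protein, had r = 0.93 and rho = 0.95 (permutation p = 0.00016 and 9e-05, adjusted 0.00308 and 0.00198), and r = 0.84 without the 2 farthest animals. CD163 and MRC1, both receptors of resident macrophages, had r = 0.90 and rho = 0.92 (permutation p = 0.00028 and 0.00051, adjusted 0.00308 and 0.00561), and r = 0.91 without the 2 farthest. NDUFV2 and NDUFS1, subunits of complex I, had r = 0.89 and rho = 0.87 (permutation p = 0.00061 and 0.00224, adjusted 0.00447 and 0.0123), and r = 0.76 without the 2 farthest. CCL2 and ICAM1, targets of NF-kB, had r = 0.81 and rho = 0.79 (permutation p = 0.00466 and 0.00863, adjusted 0.0256 and 0.038), and r = 0.70 without the 2 farthest. The CCL2 and ICAM1 pair no longer passed without Control_157 (r = 0.74), without Control_187 (r = 0.73) or on the 8 arrays with the dap spike (r = 0.82). With all probe sets of a gene averaged, FGB and FGG alone passed, with r = 0.97, while NDUFV2 and NDUFS1 had r = 0.26 and CD163 and MRC1 r = 0.72.

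**Figure D5:**
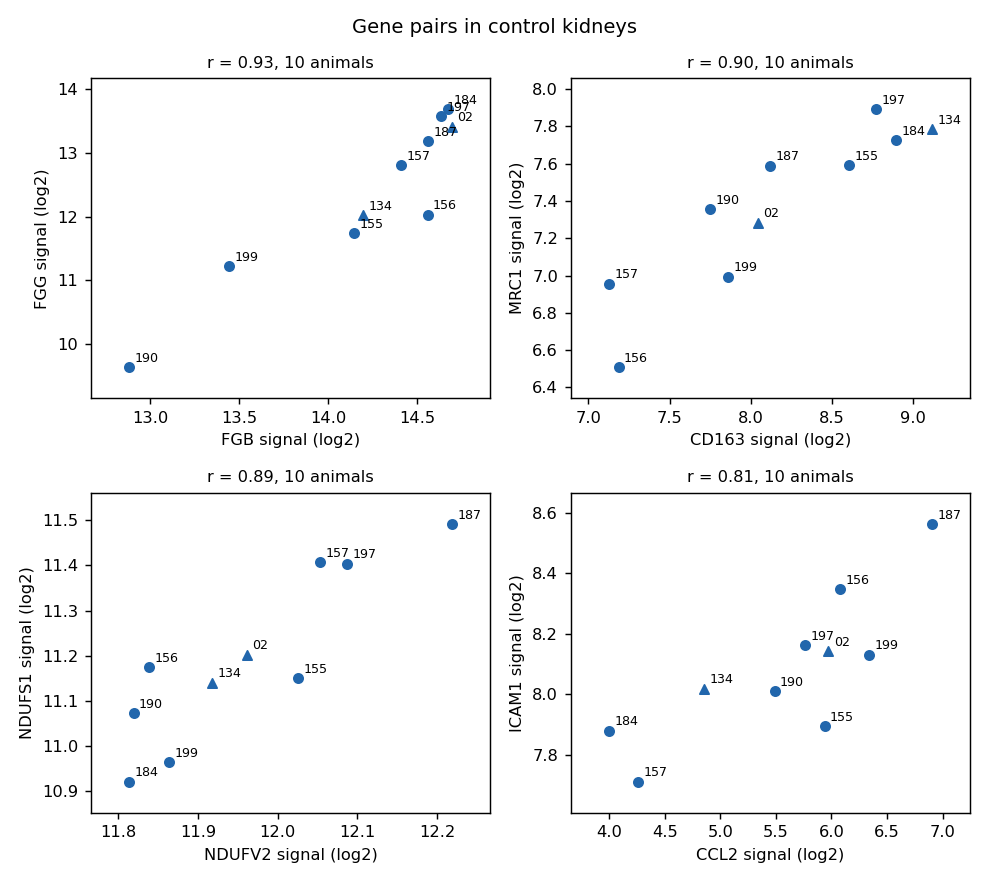
Deposited log2 signals of the 4 gene pairs that passed, 1 point per control animal with its number (triangles mark the 2 arrays without the dap spike). In the FGB and FGG panel Control_190 and Control_199 lie lowest on both axes, at 12.88 and 13.44 for FGB.

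LAPTM5 and CTSS, genes of leukocyte lysosomes, passed by rank alone, with rho = 0.89 (permutation p = 0.00114, adjusted 0.00836) and r = 0.65. FOS and EGR1 had r = 0.69 (permutation p = 0.0277, adjusted 0.102), and r was 0.08 without Control_187 and Control_156, so the relation rests on those animals. FKBP5 had r = 0.66 with TSC22D3 and 0.69 with PER1, both glucocorticoid targets, with adjusted permutation p of 0.111 and 0.102. FKBP5 and CDO1, also targets, had r = −0.25. Plasma cell genes JCHAIN and TNFRSF17 had r = −0.21, and HSPH1 and BAG3 had r = −0.42, neither past the threshold. The proximal tubule genes SLC2A2 and HNF4A had r = 0.24 and the principal cell genes SCNN1B and AQP3 r = 0.02.

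CYP2C42 was the only gene among the 5 of highest SD without a gap, so its nearest genes can be given over all 10 animals. Of 5684 genes with a mean above background, BIN2 (r = 0.91), MAPK6 (0.88), TGFBR1 (0.87), S100A9 (0.85) and LSM14A (0.84) resembled it most. BIN2, a leukocyte membrane protein, ran only from 2.67 to 3.41, and its own SD was 0.27. These are the largest of 5684 correlations and are a description with no test. For SAL1, TF, CYP2C91 and CYP2C49 no correlation over all animals is given, since their values lie on both sides of a gap.

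Fits with limma over all 23999 probe sets asked what followed the few things known about the arrays. Control_134 to Control_157 (n = 4) were compared with Control_184 to Control_199 (n = 5), the only order the labels hold, with Control_02 left out. The limma fit called 6 probe sets (0.025%), 1 higher and 5 lower in the higher numbers, at an adjusted p under 0.05. The called gene among the 6765 was RHOQ, a small GTPase: 9.46 to 9.68 in the first 4 and 8.69 to 9.02 in the other 5, with 9.09 in Control_02, a difference of −0.72 ± 0.07 (SE) with an adjusted p of 0.0481. An unadjusted p under 0.05 was found for 8116 probe sets (33.8%), and for 3763 when the 17193 with a mean above background were fitted alone. The lower quartile of the signals was 2.50 to 2.52 on the first 4 arrays and 2.54 to 2.61 on the other 5. The 3′ to 5′ difference was 1.34 to 1.64 on the first 4 and 1.44 to 1.98 on the other 5. Its part in these counts was not tested. The count was unstable: 416 without Control_134, whose array lacks the dap spike, and 0 without Control_187 or without Control_197.

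The second fit used the 3′ to 5′ difference and called 37 probe sets (0.154%), 13 rising and 24 falling as it widened. On the probe set kept, DARS, aspartyl-tRNA synthetase, fell by 2.24 ± 0.24 (SE) log2 per unit (limma adjusted p = 0.0164), from 7.08 in Control_02 to 5.03 in Control_184. Another DARS probe set, with a mean of 5.77 and an SD of 0.29, had a correlation of −0.73 with it, so the fall is not shown for the gene. ETFA, which passes electrons from fatty acid oxidation, fell by 0.84 ± 0.10 (limma adjusted p = 0.029). PLAT, tissue plasminogen activator, fell by 1.66 ± 0.22 (limma adjusted p = 0.0385), and STX11 fell too. The count was 1 without Control_02, 2 without Control_190 and 13 to 39 without any other animal.

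The third fit, added after the spike values were seen, set Control_02 and Control_134 against the other 8 and called 63 probe sets (0.263%), 60 of them higher on those 2 arrays. ROCK2, a kinase of the cytoskeleton, was 6.90 and 6.41 there and 3.85 to 4.88 in the others, a difference of 2.12 ± 0.26 (limma adjusted p = 0.0144). LOX, the collagen cross-linking enzyme, was 6.97 and 7.88 against 5.23 to 6.03 (difference 1.92 ± 0.25, limma adjusted p = 0.0216). CACNA2D1, a calcium channel subunit, was above the ceiling on those 2 arrays alone, at 3.33 and 3.10. Whether the spike, the animals or their handling go with these genes cannot be told apart. For BTG2 and CYP2C91 the same fit gave differences of 3.13 ± 0.67 and 4.93 ± 1.47, with limma adjusted p of 0.166 and 0.391.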

How the data were processed

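Kidney RNA was isolated with TRIzol, and 250 ng of it was turned into biotin-labelled cRNA for Affymetrix porcine arrays, per the labels' protocols. The deposited values are on a log2 scale, inferred from their range of 0.889 to 16.2. Background correction, summarisation and normalization by the authors are not given in the sources used here. Of 24123 probe sets, 124 controls were dropped. The platform annotation named 10069 of the other 23999 with 1 symbol, 198 with several and 13732 with none, which gave 6765 genes. The members, gene lists and pairs were chosen with earlier results of these data known. Genes were named by rule: the 15 highest means, 15 highest SDs above background, 10 lowest SDs above the median gene, up to 4 highest means and 3 highest SDs per list, all genes of the pairs, nearest genes, called genes and sex-linked genes; a few others were added as context. Fits used limma 3.58.1 in R 4.3.3, with Benjamini-Hochberg adjustment over all 23999 probe sets, and were tested on simulated data. P-values rest on the spread between these arrays, 1 per animal, which holds animal and array differences together. The number of arrays limits the precision. Alternatives were median shift, quantile normalization, other choices of probe set, the median absolute deviation, filters, leaving out each animal and leaving out the 2 arrays without the dap spike.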

Additional observations from a re-analysis of the deposited data

Results flagged for a closer look

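In 26 of the 286 genes looked at by name, 1 animal stood apart from the other 9, its gap to the nearest of them as a share of the whole range being over Dixon's 95% critical value. Over all 6765 genes this held for 11.3%, and chance alone gives about 1 group in 20. Of the 459 such genes above background on all arrays, the animal was Control_199 in 74, Control_190 in 73 and Control_156 in 69.

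Control_199 was high for SGK1 (14.22), PECAM1 (10.65) and HSP90AA1 (14.61), the last on a probe set that not all others of its gene followed. It was low for KLF9 (12.23), PER1 (9.94), SLA-DRB1 (7.27), MT3 (6.12) and the glucose 6-phosphate transporter SLC37A4 (12.10). Control_134 was high for KCNJ1 (11.31), SLC8A1 (3.71), EIF2AK2 (9.68), USP18 (7.87) and RSAD2 (7.22), and low for SLC22A6 (7.10). Control_157 was low for SELENOP (14.69), PDZK1 (13.52) and GC (3.41). Control_190 was low for C1QA (4.25) and CDO1 (5.81). Control_184 was high for HNF4A (13.06) and low for TAP1 (8.06), and Control_155 was low for SOD2 (11.998). FABP1 (2.47) and EPO (2.36) in Control_199, SCNN1A (2.52) in Control_157 and the muscle creatine kinase CKM (2.38) in Control_197 stood apart but lie under the background ceiling.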

How the results depend on the processing

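The median SD, the number of genes above background and the number with a 4-fold range stayed within 1.5 times of their values under each alternative run. The count of pairs that passed was 1 when all probe sets of a gene were averaged, and 3 to 5 without any 1 animal. The animal number fit called 41 probe sets after a median shift, 6015 with limma's trend and robust options, 1496 with Control_02 among the lower numbers, 416 on the arrays with the dap spike, and 0 to 416 without any 1 animal; at 0 calls, 7572 probe sets without Control_187 and 6131 without Control_197 had an unadjusted p under 0.05. The 3′ to 5′ fit called 14 with trend and robust options, 1 on the arrays with the dap spike, and 1 to 39 without any 1 animal. The cause was not tested. Of 286 named genes, the SD moved by over 1.5 times for 59 with a scaled median absolute deviation, 45 with averaged probe sets (CYP2C42 to 1.44), 25 with the probe set of highest SD, 23 after a median shift, and 15 each after quantile normalization and on the arrays with the dap spike. Values under the background ceiling carry no order, and the labels name no technical repeat of an array. No paired analysis was possible because the control animals were compared with no other group here.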
